A study of Homo sapiens with 9 samples.

Results

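The nuclear genes for subunits of the oxidative phosphorylation machinery were examined in HMEC-1, an immortalised line of human dermal microvascular endothelial cells, after exposure to trimethylamine-N-oxide (TMAO). Members were selected by symbol as the NDUFA, NDUFB, NDUFC, NDUFS and NDUFV genes of complex I, the SDH genes of complex II, the UQCR genes of complex III, the COX genes of complex IV whose number is followed by A, B or C together with COX7A2L, and the ATP5 genes of complex V. The rule found 86 of the 29740 gene symbols in the count table. They comprised 38 genes of complex I, 4 of complex II, 10 of complex III, 15 of complex IV and 19 of complex V. The symbol forms used by the rule leave out COX4I1, CYC1, NDUFAB1, USMG5 and C14orf2, which also encode subunits, and take in COX7A2L, ATP5S and ATP5SL, which are not enzyme subunits, together with several pseudogenes and retrocopies. NDUFA4 carries a complex I name and is counted with complex I here, although its product belongs to complex IV.

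The study sequenced RNA from untreated cells (CTRL), from cells given 50 µM TMAO for 24H (TMAO 24H) and from cells given 50 µM TMAO for 48H (TMAO 48H), with 3 libraries in each group. All groups were the same unmodified line, and treatment took place in serum-starved medium with 2% foetal bovine serum. The authors merged the untreated cells of 24H and 48H into one CTRL group, so the time in culture of a given CTRL library is not known here and treatment time cannot be told apart from time in culture. The labels do not say whether the 3 libraries of a group came from separate cultures, so the p-values measure the spread between these libraries, which may be technical.

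Oxidative phosphorylation takes place in the inner mitochondrial membrane. Complexes I and II pass electrons from NADH and succinate to ubiquinone, complex III hands them on to cytochrome c, complex IV reduces oxygen, and the proton gradient built by complexes I, III and IV drives ATP synthesis by complex V. Most subunits are encoded in the nucleus and must be made in step with the few encoded in mitochondrial DNA, which are not analysed here. Endothelial cells obtain much of their ATP from glycolysis, and their respiratory chain is also known as a source of reactive oxygen species.

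Total estimated counts per library ranged from 25205756 to 36927373. Ribosomal RNA genes took 0.968% to 6.73% of the counts in 8 libraries and 30.7% in TMAO 24H replicate 1. Endothelial markers were detected for 13 of 13 genes, with a summed normalised count of 96342 to 106851 in CTRL, 95598 to 101807 in TMAO 24H and 84465 to 91610 in TMAO 48H, and 9 of the 13 were lower at 48H (edgeR, adjusted p under 0.05). The 8 fibroblast markers summed to 29602 to 34508 in CTRL and 19366 to 21126 at 48H, while 2 of them, DCN and LUM, were too low to test, and the 4 smooth muscle markers to 2414 to 2779 and 3171 to 3496. At an adjusted p under 0.05 (edgeR), 2 of 6 tested fibroblast markers were lower at 48H and 1 was higher. Of the 4 smooth muscle markers 2 were higher and 0 lower. Over all genes tested 5.29 percent were lower and 5.13 percent higher at 48H. The 4 epithelial markers summed to 1692 to 3047 in CTRL and TMAO 24H and to 266 to 2937 at 48H, where the low value was replicate 3. Of the 4 leukocyte markers (590 to 711 over all libraries) CD3E was at 0 throughout. The part of these differences in the subunit values was not tested. The subunit counts below were also obtained without each library in turn. That cannot address differences shared by all 48H libraries, such as those of the endothelial sums.

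Of the 86 members, 80 passed the filter on low counts that edgeR applies (38 of complex I, 4 of II, 9 of III, 12 of IV and 17 of V), and 77 had a mean normalised count of at least 50. A normalised count is the estimated count divided by the library's effective size relative to the mean library, so that libraries can be compared. The 6 members that were not tested were COX6A2, COX7B2 and COX8C, which encode muscle and testis forms of complex IV subunits and had 0 counts in all 9 libraries, and ATP5EP2, ATP5L2 and UQCRBP1, with no more than 3.02 normalised counts in any library. The 3 tested members below a mean of 50 were NDUFA4L2, COX6B2 and COX7A1. In bulk RNA a smaller number of cells of a type and less RNA per cell cannot be told apart.

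Counts were divided by transcript length to compare levels between genes. In CTRL the 77 members with a mean of at least 50 ranged from 111.2 to 9219 normalised counts per kilobase. The median was 1410.0 for complex I (n = 37), 2842 for complex II (n = 4), 2374 for complex III (n = 9), 2823 for complex IV (n = 10) and 2659 for complex V (n = 17). ATP5B, the catalytic beta subunit of ATP synthase, stood highest at 9219 ± 147 per kilobase (SD, n = 3). It was followed by SDHC, which anchors complex II in the membrane, at 6586 ± 357 per kilobase and by ATP5J2, a small subunit of the membrane part of complex V, at 6504 ± 466 per kilobase. These 2 levels differed by less than the SD of either. UQCRB, the ubiquinone-binding protein of complex III, lay at 5248 ± 444 per kilobase and ATP5A1, the alpha subunit of ATP synthase, at 4605 ± 70.2. In complex I the highest level was that of NDUFC2, at 4207 ± 585 per kilobase, and the lowest among members with a mean of at least 50 was that of NDUFV3, at 267 ± 4.47. Among the tested genes of complex III other than the retrocopy UQCRHL, the lowest was UQCRFS1, which encodes the Rieske iron-sulphur protein, at 540.2 ± 15.0 per kilobase. These levels rest on median transcript lengths from GENCODE release 29 and not on the isoforms present in the cells.

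**Figure D1:**
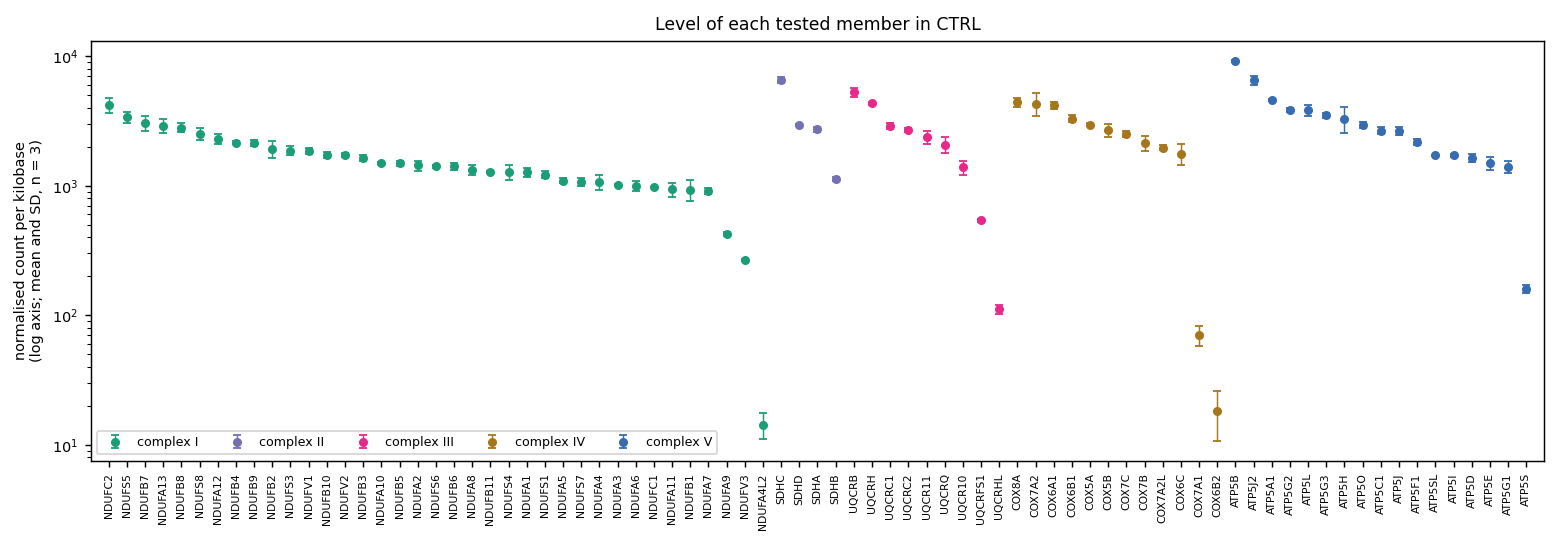
Level of 79 of the 80 tested members in CTRL as normalised counts per kilobase of transcript on a log axis, as mean and SD of 3 libraries, ordered within each complex. ATP5B stands highest at 9219 per kilobase, and NDUFA4L2, COX6B2, COX7A1, UQCRHL and ATP5S lie well under the other members of their complexes.

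Several subunits have forms that other tissues prefer, and the share of each form per kilobase was compared across groups. Among the 3 genes that encode the same mature c subunit of the ATP synthase ring, ATP5G1 took 16.02% ± 1.27, ATP5G2 44.2% ± 0.461 and ATP5G3 39.8% ± 1.41 in CTRL (SD, n = 3). At 24H the shares were 15.6% ± 0.700, 44.7% ± 1.18 and 39.6% ± 1.43, and at 48H they were 16.5% ± 0.616, 45.5% ± 1.86 and 38.0% ± 2.47, so no share differed from CTRL by more than its SD in the treated group. COX7A2 took 67.5% ± 3.45 of the 7A group in CTRL, 66.8% ± 2.88 at 24H and 68.6% ± 1.08 at 48H. COX7A2L, which takes part in joining complexes III and IV into supercomplexes, took 31.4% ± 3.35, 32.4% ± 2.71 and 30.3% ± 1.13. COX7A1, the heart and muscle form, took 1.11% ± 0.190, 0.864% ± 0.243 and 1.12% ± 0.0848. NDUFA4L2, which is known as a hypoxia-induced relative of NDUFA4, took 1.34% ± 0.342 of the pair in CTRL, 1.58% ± 0.531 at 24H and 1.43% ± 0.549 at 48H. COX6B2, a testis form, took 0.556% ± 0.236 of the COX6B pair in CTRL, 0.478% ± 0.173 at 24H and 0.493% ± 0.223 at 48H. UQCRHL, a retrocopy of the hinge protein gene UQCRH, took 2.501% ± 0.155 in CTRL, and its reads cannot be separated with certainty from those of UQCRH. The 3 ATP5G genes share near-identical sequence in part, so their split has the same limit. The shares of COX7A2, COX7A2L, NDUFA4L2 and COX6B2 differed from CTRL by less than their SD in CTRL. Measured by the SD in CTRL, the shares of ATP5G2 at 24H and 48H, ATP5G3 at 48H and COX7A1 at 24H differed by more. COX7A1 at 24H also differed by more than its SD in the treated group, and COX7A2 at 48H by about that SD. The shares were not tested.

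The promoters of these genes are known to carry sites for NRF1, for ETS factors such as GABPA, and for YY1, factors that tie nuclear respiratory genes to mitochondrial biogenesis. RefSeq promoters (GRCh38.p14, 250 bases before to 50 bases after the start) were found for 68 of the 86 members. The NRF1 letters (GCGCA, any base, then GCGC) occurred on either strand in 16 of the 68 (23.5%), against 11.5% of the 11175 promoters of tested genes and 6.28% of all 27305 promoters. CCGGAAG (ETS) occurred in 18 (26.5%, against 18.7% and 10.7%), AAGATGGCG (YY1) in 8 (11.8%, against 3.79% and 1.85%) and GGGCGG (SP1) in 38 (55.9%, against 69.5% and 44.6%). No promoter held all 3 of the NRF1, ETS and YY1 letters, 7 held 2 of them, 28 held 1 and 33 held none. An NRF1 stretch with T in the middle matches on both strands, and none of the motifs printed here overlaps another kind. A match describes the letters only. It is no evidence of binding, and COX8C, which had 0 counts, held the NRF1 letters as well.

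The bases upstream of the start are shown for the member of each complex that held the most kinds, and then the most copies over both strands, of the NRF1, ETS and YY1 motifs there. These promoters were thus picked for their motifs, and no kind of motif occurred in all of them. In complex IV 5 members were tied at 1 motif (COX5B, COX6A1, COX6B1, COX8A and COX8C), and COX5B is the first of them by name. Capitals mark NRF1, ETS and YY1 letters.
NDUFB4, chr3:120596086-120596335, plus strand: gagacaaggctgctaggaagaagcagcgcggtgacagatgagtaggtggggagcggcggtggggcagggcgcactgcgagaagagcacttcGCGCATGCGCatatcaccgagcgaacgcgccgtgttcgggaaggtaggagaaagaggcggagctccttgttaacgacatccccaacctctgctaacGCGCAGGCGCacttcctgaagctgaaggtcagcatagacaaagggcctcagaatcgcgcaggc
SDHD, chr11:112086623-112086872, plus strand: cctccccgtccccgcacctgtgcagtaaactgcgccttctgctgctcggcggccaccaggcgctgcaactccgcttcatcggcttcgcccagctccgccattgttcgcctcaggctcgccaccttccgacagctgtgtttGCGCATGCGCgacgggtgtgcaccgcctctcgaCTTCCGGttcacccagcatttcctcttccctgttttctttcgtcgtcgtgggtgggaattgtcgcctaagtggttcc
UQCR11, chr19:1605463-1605712, minus strand: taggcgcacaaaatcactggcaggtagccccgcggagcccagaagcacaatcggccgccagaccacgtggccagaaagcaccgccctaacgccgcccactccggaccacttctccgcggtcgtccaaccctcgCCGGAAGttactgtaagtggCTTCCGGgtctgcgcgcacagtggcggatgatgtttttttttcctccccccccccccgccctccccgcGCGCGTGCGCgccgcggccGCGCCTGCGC
COX5B, chr2:97645812-97646061, plus strand: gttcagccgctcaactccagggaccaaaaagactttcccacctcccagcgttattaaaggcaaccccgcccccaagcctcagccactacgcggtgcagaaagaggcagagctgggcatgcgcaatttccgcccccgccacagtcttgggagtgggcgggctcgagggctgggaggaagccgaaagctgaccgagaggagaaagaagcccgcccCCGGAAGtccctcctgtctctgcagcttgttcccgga
ATP5J, chr21:25735055-25735304, minus strand: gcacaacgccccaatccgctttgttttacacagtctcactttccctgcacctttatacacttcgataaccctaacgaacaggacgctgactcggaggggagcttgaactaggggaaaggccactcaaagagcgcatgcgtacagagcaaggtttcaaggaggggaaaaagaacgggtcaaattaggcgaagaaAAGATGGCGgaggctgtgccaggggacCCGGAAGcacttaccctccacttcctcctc
NDUFB4 held 2 NRF1 stretches, of which the first began 159 bases and the second 63 bases before the start. In SDHD an NRF1 stretch began 110 bases and an ETS motif 77 bases before it. UQCR11 held 2 NRF1 and 2 ETS motifs, COX5B an ETS motif that began 37 bases before the start, and ATP5J a YY1 and an ETS motif that began 57 and 30 bases before it.

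The first comparison asked whether transcripts of the respiratory chain had changed after 24H of TMAO. No member did so by the test, and the changes that could have gone unseen were small for nearly all of them. The quasi-likelihood test of edgeR, with p-values adjusted by Benjamini and Hochberg's method over all 14740 genes tested, gave 0 of 80 members an adjusted p under 0.05, against a background of 0.095 percent of all genes (14 genes, all lower, so 0 percent higher and 0.095 percent lower). With a change of at least 1.4-fold besides, the count was 0 against 0.0475 percent. At an unadjusted p under 0.05, 2 members were lower (ATP5D and NDUFA2) and 0 higher, against 7.24 percent of all genes (2.77 percent higher and 4.47 percent lower), and DESeq2 gave 0 members after adjustment and 1 before it. The fold change was above 0 on the log2 scale for 37 members and below 0 for 43, with a median of -0.0075 beside -0.00042 over all genes. The 95% interval of the fold change lay within 1.4-fold in either direction for 76 of 80 members, against 76.4% of all genes tested, and within 1.2-fold for 63. Outside 1.4-fold lay the intervals of the low-count genes NDUFA4L2, COX6B2 and COX7A1 and that of ATP5D.

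After 48H the table as a whole had changed more, while the same genes again gave no call. The adjusted p was under 0.05 for 0 of 80 members with edgeR, against 10.4 percent of all genes (5.13 percent higher and 5.29 percent lower), and for 0 with DESeq2. With at least 1.4-fold besides, the count was 0 against 1.8 percent. At an unadjusted p under 0.05 there was 1 higher (SDHC) and 1 lower (ATP5D) with edgeR, against 25.8 percent of all genes (13.2 percent higher and 12.6 percent lower), and 1 with DESeq2. Values above and below 0 were equal in number at 40 and 40, and the median log2 fold change was -0.00046 beside 0.0040 over all genes. The median size of the change was 0.050 on the log2 scale for the 77 members with a mean of at least 50, and 0.085 for the 9936 genes within the members' range of mean counts, of which 13.4% were called. The interval lay within 1.4-fold for 76 of 80 members (71.5% of all genes) and within 1.2-fold for 66 (45.5% of all genes). As at 24H, ATP5D and the same 3 low-count genes were outside. The median standard error was again larger for the 77 members, at 0.0653, than for the 9936 genes, at 0.0586.

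The direct comparison of 48H with 24H shares the TMAO libraries with both contrasts above and is not independent of them. It gave 0 of 80 members at an adjusted p under 0.05 with edgeR, against 7.52 percent of all genes (3.77 percent higher and 3.76 percent lower), and 0 with DESeq2. With at least 1.4-fold besides, the count was 0 against 1.7 percent. At an unadjusted p under 0.05, 5 members were higher at 48H (NDUFA3, NDUFA7, NDUFB4, SDHC and SDHD) and 0 lower with edgeR, against 22.1 percent of all genes (11.6 percent higher and 10.5 percent lower), and DESeq2 gave 2. The median was 0.0055 beside 0.0040 over all genes, with 44 values above and 36 below 0. The interval lay within 1.4-fold for 77 of 80 members, against 72.2% of all genes, and these were all 77 members with a mean of at least 50. Their median standard error was 0.0652, against 0.0586 for the 9936 genes in their range of mean counts.

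**Figure D2:**
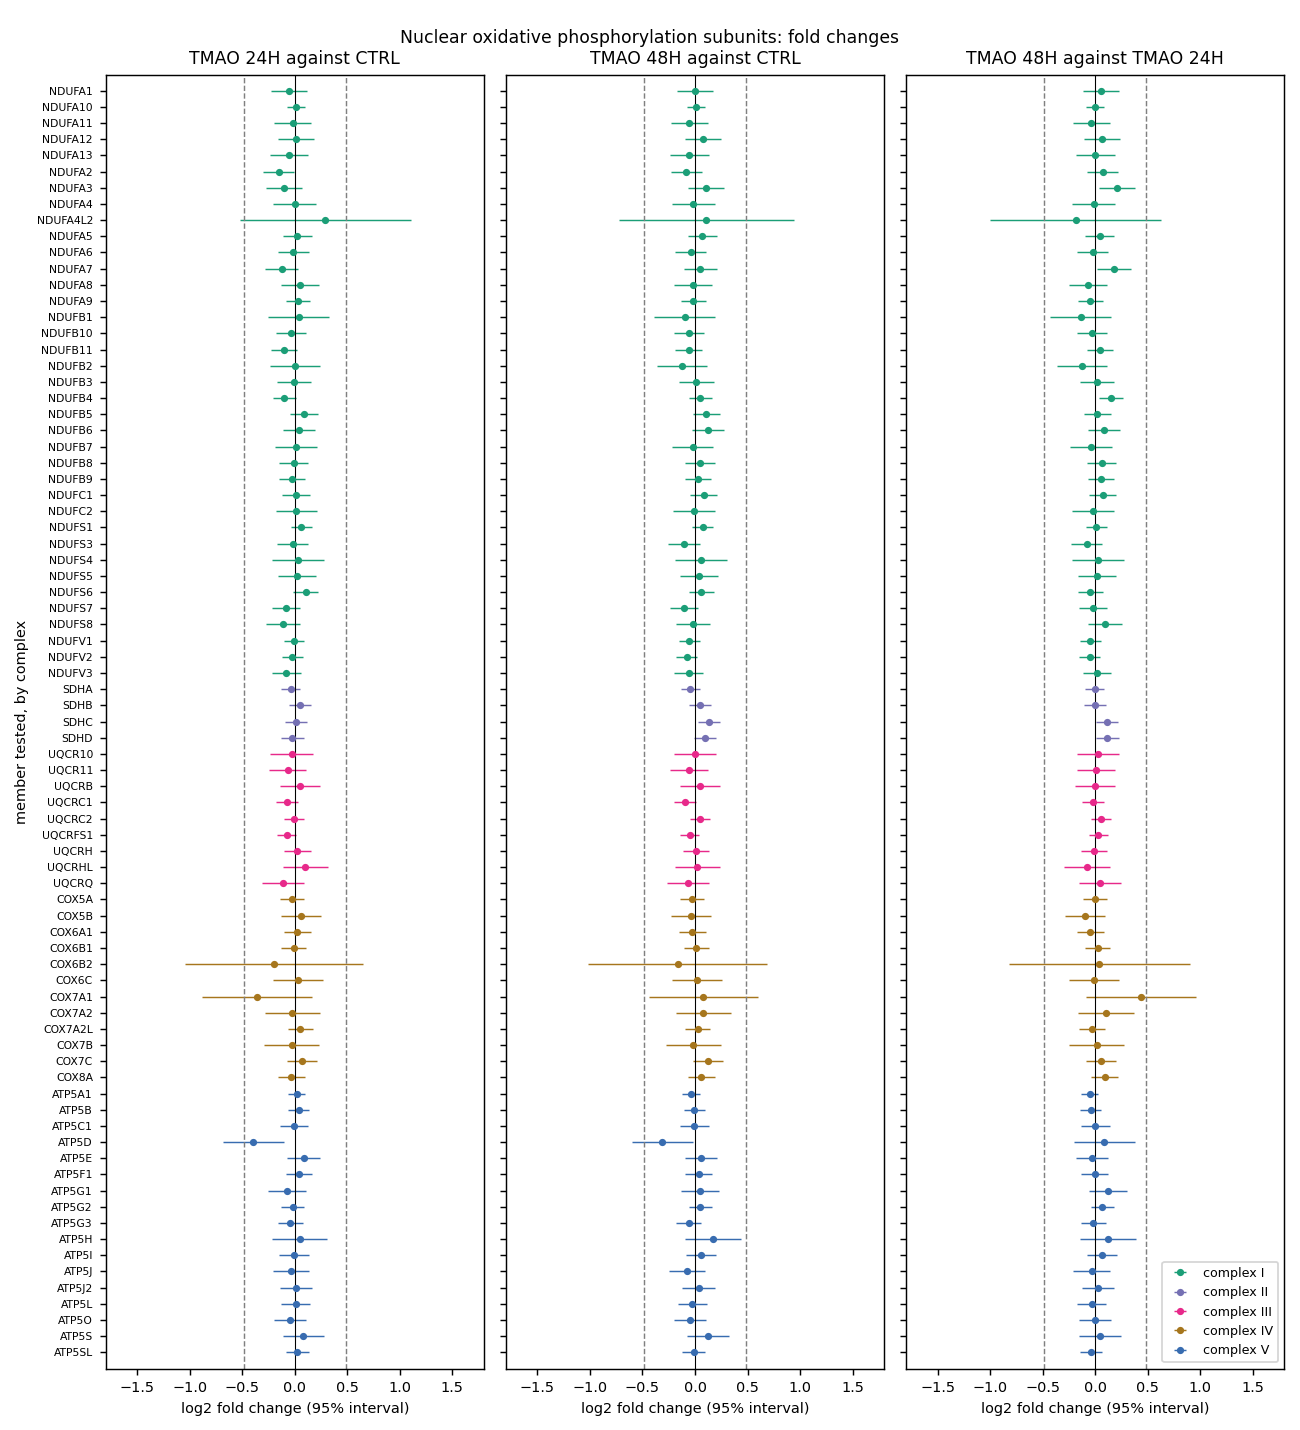
Log2 fold change with its 95% interval for 79 of the 80 tested members in the 3 contrasts, coloured by complex, with dashed lines at 1.4-fold in either direction. Nearly all intervals lie between the dashed lines and cross 0, ATP5D lies furthest to the left at 24H and 48H among members with a mean of at least 50, and NDUFA4L2, COX6B2 and COX7A1 have the widest intervals.

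The values of single members given below were unstable. Of the member values followed through the alternatives, 17 of 19 at 24H, 16 of 18 at 48H and 13 of 18 between the time-points moved by over 1.5 times or changed sign when 1 library was left out, and 8, 10 and 12 did so with a correction for GC content and length.

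When counts were summed over each complex, the groups also lay close together. All members together summed to 158466, 165747 and 173556 normalised counts in the CTRL libraries, 166504, 169140.0 and 161365 at 24H and 177034, 160392 and 160156 at 48H. The CTRL libraries thus spanned more than the means of the groups did. By complex the ratio at 24H and 48H was 0.996 and 0.998 for complex I, 0.990 and 1.03 for complex II, 0.981 and 0.987 for complex III, 1.01 and 1.02 for complex IV and 1.01 and 0.996 for complex V. In complex II the 3 libraries had 12329, 12577 and 12570.0 at 24H and 13276, 12842 and 12679 at 48H, which did not overlap, while both overlapped CTRL at 12493, 12840.0 and 12503.

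**Figure D3:**
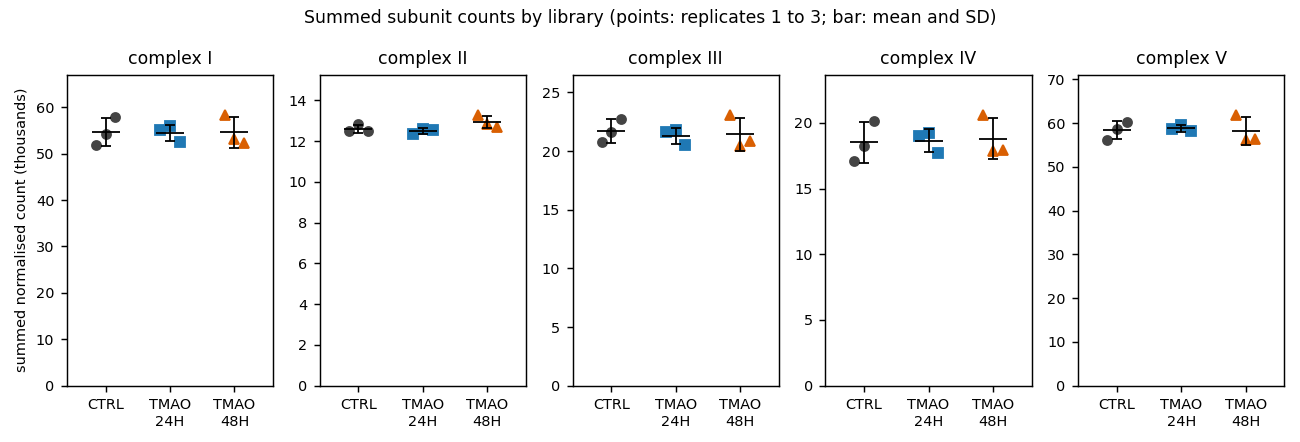
Summed normalised counts (axis in units of 1000) of the members of each complex in every library, with mean and SD of each group. The groups overlap in complexes I, III, IV and V, and in complex II the 48H libraries, from 12679 to 13276, lie above the 24H libraries but overlap CTRL.

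Complex I, the entry point for electrons from NADH, had 38 tested members. Their median change on the log2 scale came to -0.0036 at 24H, -0.013 at 48H and 0.0050 between the time-points. NDUFB4, an accessory subunit of the membrane arm, had the smallest adjusted p of all members in any contrast. Its normalised counts were 1417, 1489 and 1414 in CTRL, 1275, 1372 and 1387 at 24H and 1544, 1509 and 1421 at 48H. All 24H libraries lay under all CTRL and all 48H libraries, while CTRL and 48H overlapped. The fold change on the log2 scale came to -0.10 ± 0.051 (SE) at 24H and 0.15 ± 0.051 from 24H to 48H, with adjusted p-values of 0.733 and 0.0988 (edgeR).

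NDUFA7, another accessory subunit, had 521, 551 and 581 normalised counts in CTRL, 477, 539.7 and 498 at 24H and 558, 543 and 612 at 48H. Its 48H libraries all exceeded its 24H libraries and both groups overlapped CTRL. From 24H to 48H its log2 fold change was 0.18 ± 0.074 (adjusted p = 0.181 with edgeR). NDUFA3 showed the largest such value in the complex, 0.20 ± 0.079 (adjusted p = 0.151 with edgeR), with 381, 405 and 364 normalised counts at 24H and 470.3, 399.8 and 455 at 48H, which overlapped by the lowest 48H library. With a correction for GC content and length the value for NDUFA3 was 0.40, still without a call.

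At 24H NDUFA2 had the largest value below 0 in complex I, -0.15 ± 0.069 on the log2 scale (adjusted p = 0.679 with edgeR). Its normalised counts were 926, 1041 and 1110.3 in CTRL and 924, 937 and 906 at 24H, and CTRL replicate 1 lay among the treated libraries. NDUFB11, an X-linked accessory subunit of the membrane arm, had 1479, 1529 and 1492 in CTRL and 1465, 1344 and 1376 at 24H. These did not overlap, and the log2 fold change was -0.10 ± 0.059 (adjusted p = 0.777 with edgeR). Also lower in value at 24H were NDUFA7 at -0.13 and NDUFS8, an iron-sulphur subunit of the matrix arm, at -0.11. On the other side NDUFS6, an accessory subunit of the matrix arm, was at 0.11 ± 0.055 and NDUFB5 at 0.088 ± 0.060, with adjusted p-values of 0.734 and 0.826 (edgeR).

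At 48H the values in complex I ran from -0.13 ± 0.11 for NDUFB2 to 0.12 ± 0.070 for NDUFB6, both accessory subunits of the membrane arm, with adjusted p-values of 0.510 and 0.290 (edgeR). Leaving out single libraries gave -0.26 to -0.0022 for NDUFB2 (the latter without CTRL replicate 3) and 0.054 (without TMAO 48H replicate 1) to 0.18 for NDUFB6. NDUFB2 had 904, 916 and 1168 normalised counts in CTRL and 1067, 815 and 853 at 48H, so its groups overlapped widely. The other members below 0 by the most were NDUFS3 at -0.10, NDUFS7 at -0.10 and NDUFB1 at -0.10, of which NDUFS3 and NDUFS7 are core subunits of complex I. NDUFB5 stood at 0.11 above 0. From 24H to 48H NDUFB1 was at -0.14 ± 0.13, NDUFB2 at -0.13 ± 0.11 and NDUFS3 at -0.083 ± 0.070. None of these passed the test in any contrast. NDUFC2 overlaps the readthrough gene NDUFC2-KCTD14 in the table, and reads may be divided between them.

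Complex II, which is also the succinate dehydrogenase of the citric acid cycle, has no mitochondrially encoded subunit, so its 4 genes cover the whole enzyme. The flavoprotein gene SDHA had 5753, 5988 and 5473 normalised counts in CTRL, 5639, 5405 and 5709 at 24H and 5611, 5547 and 5524 at 48H. Its fold change on the log2 scale came to -0.039 ± 0.042 at 24H and -0.045 ± 0.042 at 48H, and its groups overlapped. The iron-sulphur gene SDHB had 1339, 1285 and 1261, 1299.5, 1403 and 1311 and 1343, 1303 and 1369, with log2 fold changes of 0.047 ± 0.049 and 0.047 ± 0.049. These too overlapped in all groups.

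The membrane anchors lay higher at 48H in value. SDHC had 2868, 3025 and 3196 normalised counts in CTRL, 3053, 3164 and 2964 at 24H and 3462, 3298 and 3182 at 48H. All 48H libraries exceeded all 24H libraries, and CTRL replicate 3 lay just above the lowest 48H library. The fold change on the log2 scale came to 0.014 ± 0.049 at 24H, 0.13 ± 0.049 at 48H and 0.11 ± 0.049 between the time-points, with adjusted p-values of 0.9804, 0.112 and 0.187 (edgeR). With the correction for GC content and length the values for SDHC were -0.14, 0.11 and 0.24, so that the sign at 24H turned and the value between the time-points was more than 1.5 times as large.

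SDHD, whose promoter is printed above, had 2533, 2541 and 2573 normalised counts in CTRL, 2337, 2604 and 2586 at 24H and 2860.0, 2694 and 2604 at 48H. Here all 48H libraries exceeded all CTRL libraries, and the highest 24H library and the lowest 48H library lay level. The log2 fold change was -0.023 ± 0.050, 0.093 ± 0.050 and 0.12 ± 0.050, with adjusted p-values of 0.970, 0.261 and 0.191 (edgeR). The 95% intervals at 48H were 0.024 to 0.23 for SDHC and -0.014 to 0.20 for SDHD on the log2 scale. Neither gene passed the test, and a difference of these anchors from SDHA and SDHB was not tested.

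**Figure D4:**
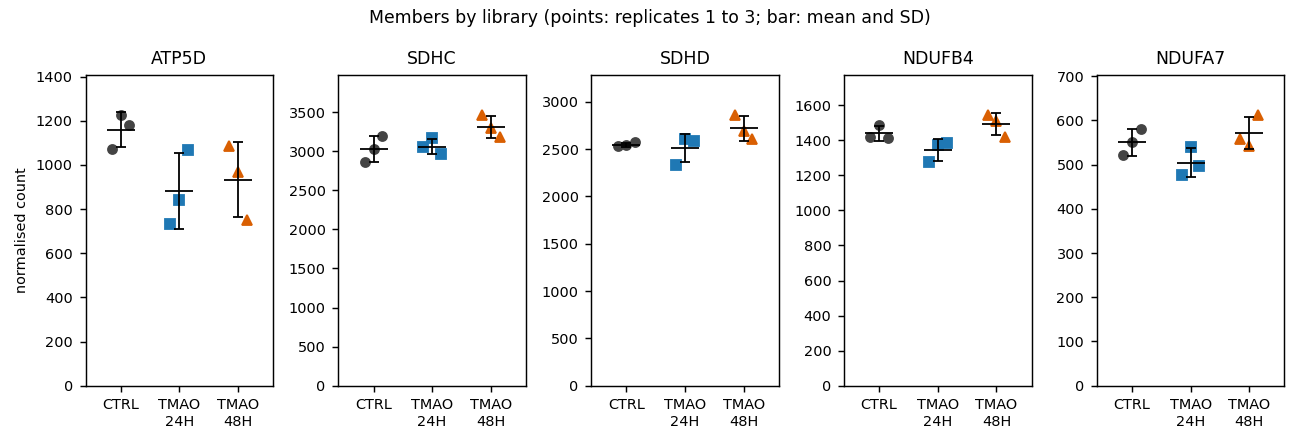
Normalised counts of ATP5D, SDHC, SDHD, NDUFB4 and NDUFA7 in every library, with mean and SD of each group and axes from 0. ATP5D is lower in all 24H libraries than in CTRL, though TMAO 24H replicate 3 comes close to CTRL replicate 1, and the other 4 genes differ between groups by little more than the libraries of a group do.

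Complex III, which passes electrons from ubiquinol to cytochrome c, had 9 tested members with median log2 fold changes of -0.029 at 24H, -0.0015 at 48H and 0.0097 between them. UQCRQ was lowest at 24H, at -0.11 ± 0.092, and UQCRHL highest, at 0.10 ± 0.10 (adjusted p = 0.872 and 0.905 with edgeR). At 48H the core protein gene UQCRC1 was at -0.092 ± 0.049 and UQCRB at 0.049 ± 0.089 (adjusted p = 0.256 and 0.778 with edgeR). With the correction for GC content and length UQCRC1 was at -0.018 and UQCRB at -0.023. From 24H to 48H the values ran from -0.079 for UQCRHL to 0.055 for UQCRC2. UQCRFS1 had 1823, 1881 and 1927 normalised counts in CTRL and 1823, 1812 and 1808 at 48H. The lowest CTRL library and the highest 48H library lay level, with no overlap beyond that, and the log2 fold change was -0.049 ± 0.042 (adjusted p = 0.504 with edgeR).

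Complex IV, cytochrome c oxidase, had 12 tested members with median log2 fold changes of -0.017, 0.017 and 0.019 in the 3 contrasts. Among members with a mean of at least 50, COX7C was highest at both time-points, at 0.067 ± 0.065 and 0.12 ± 0.065 (adjusted p = 0.902 and 0.264 with edgeR). Its normalised counts were 1591, 1652 and 1782 in CTRL, 1884, 1751 and 1628 at 24H and 1966, 1768 and 1731 at 48H, and all groups overlapped. COX8A was lowest at 24H, at -0.032 ± 0.060, and COX5B at 48H, at -0.043 ± 0.088. COX8A did not overlap between the TMAO groups, with 2222, 2202 and 2135 normalised counts at 24H and 2517, 2239.6 and 2224 at 48H, and its log2 difference was 0.090 ± 0.060 (adjusted p = 0.423 with edgeR). From 24H to 48H COX7A2 was at 0.10 ± 0.12 and COX5B at -0.10 ± 0.088. The low muscle form COX7A1 had 33.1, 46.8 and 43.3 in CTRL, 22.4, 38.1 and 34.9 at 24H and 50.1, 42.3 and 38.0 at 48H, and its 95% interval from 24H to 48H ran from -0.088 to 0.96 on the log2 scale.

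Complex V, the ATP synthase, had 17 tested members with median log2 fold changes of 0.0079, -0.0064 and 0.00085. ATP5D, the delta subunit of the central stalk, had the largest value below 0 of any member with a mean of at least 50. Its normalised counts were 1072, 1226 and 1183 in CTRL, 732, 843 and 1068 at 24H and 1084, 969 and 749 at 48H. The 24H libraries lay under all CTRL libraries, and TMAO 48H replicate 1 lay within CTRL. The means were 1160.0 ± 79.4, 881 ± 171 and 934 ± 170.0 (SD, n = 3). The fold change on the log2 scale came to -0.40 ± 0.13 at 24H and -0.31 ± 0.13 at 48H, with adjusted p-values of 0.526 and 0.160 (edgeR). Its transcripts have a GC content of 69.3%, and with a correction for GC content and length the values were -0.30 and -0.15. Without 1 library at a time ATP5D was at -0.56 to -0.28 at 24H and -0.43 (without TMAO 48H replicate 1) to -0.18 (without TMAO 48H replicate 3) at 48H. Its coefficient of variation within groups, 15.9%, was the highest of the 77 members, whose median was 6.52%.

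ATP5B, the most abundant member, had 16642, 17139 and 17077 normalised counts in CTRL and 17448, 17289 and 17432 at 24H. The 24H libraries all lay above CTRL, by a log2 fold change of 0.037 ± 0.046 (adjusted p = 0.933 with edgeR), and at 48H the groups overlapped at 17926, 16437 and 16233. ATP5H, a subunit of the peripheral stalk, was highest in value at 48H, at 0.17 ± 0.12 (adjusted p = 0.422 with edgeR). It had 1403, 2236 and 2079.5 in CTRL and 2293, 2049 and 2087 at 48H. CTRL replicate 1 stood well below the rest, and without it the value at 48H was -0.0097. ATP5E, the epsilon subunit, was at 0.085 ± 0.072 at 24H. ATP5S, an assembly-related gene with the ATP5 name, was at 0.082 ± 0.092 at 24H and 0.13 ± 0.092 at 48H. From 24H to 48H ATP5H was at 0.12 ± 0.12, ATP5G1 at 0.12 ± 0.082 and ATP5A1, which had the least spread of all members within groups (2.20%), at -0.054 ± 0.039.

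Counting only libraries that did not overlap, 4 of 80 members separated CTRL from 24H (ATP5B above, ATP5D, NDUFB4 and NDUFB11 below), against 14.2 percent of all genes tested. At 48H there were 2 (SDHD above, UQCRFS1 below), against 27.8 percent. Between the time-points there were 5, among them COX8A, NDUFA7, NDUFB4 and SDHC, which were higher at 48H, against 27.6 percent.

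The libraries of a group differed more than the groups did, and in most libraries the members deviated together. Of the 77 members with a mean of at least 50, 72 lay above their group's mean in TMAO 48H replicate 1, 58 in CTRL replicate 3 and 58 in TMAO 24H replicate 2. Only 9 did so in CTRL replicate 1, 17 in TMAO 24H replicate 3, 12 in TMAO 48H replicate 2 and 13 in TMAO 48H replicate 3. The median deviation on the log2 scale ran from -0.074 in CTRL replicate 1 to 0.109 in TMAO 48H replicate 1. In CTRL replicate 2 the members were split, with 36 above and a median of -0.0038. In TMAO 24H replicate 1, the library with the high share of ribosomal RNA, 50 lay above and the median was 0.0091. The pooled SD between libraries of the members' median was 0.076, which is larger than the median fold change of the members in any contrast.

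Other genes moved with them in these libraries. In CTRL replicate 3 the median deviation was 0.079 for the members, 0.102 for 84 cytosolic ribosomal protein genes, 0.047 for 76 mitochondrial ribosomal protein genes, 0.069 for 1116 other genes with transcripts under 1000 bases and 0.0028 for all genes. In TMAO 48H replicate 1 the values were 0.109, 0.129, 0.077, 0.066 and -0.0082. The median transcript length of the members was 753 bases, against 2505 for all genes tested. The 50 members with transcripts under 1000 bases deviated by 0.107 and 0.121 in these 2 libraries, and the 27 longer ones by 0.045 and 0.074. The 4 genes of complex II deviated by -0.012 and 0.038. The part of transcript length or of the library in the members' values was not tested. The members took 0.553% to 0.631% of the counts outside ribosomal RNA genes in each library.

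**Figure D5:**
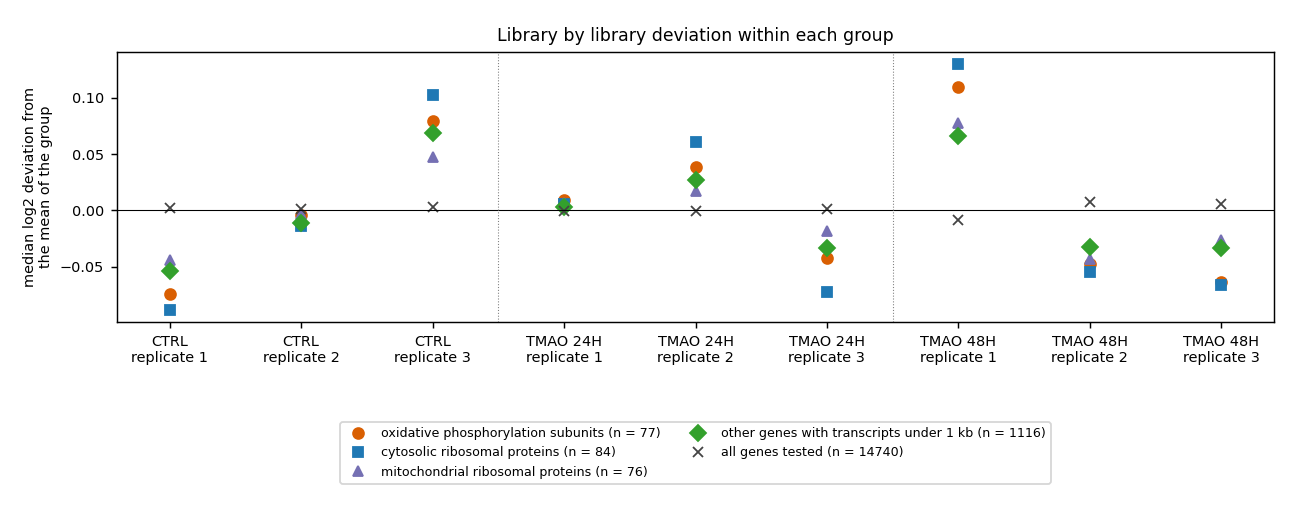
Median log2 deviation of each gene group from its own group mean in every library, for the 77 members with a mean of at least 50, both kinds of ribosomal protein genes, other genes with transcripts under 1 kb and all genes tested. The members move with the ribosomal protein genes and the other short genes, up in CTRL replicate 3 and TMAO 48H replicate 1 and down in CTRL replicate 1, while all genes together stay near 0.

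When these 2 libraries, in which the members stood highest, were both left out, a choice made after their values had been seen, 0 members passed at 24H, against 0.235 percent of all 14886 genes tested in that fit (all lower). At 48H 1 passed, against 10.3 percent of all genes (5.64 percent lower), and between the time-points 2 passed, against 10.4 percent (5.44 percent lower). All 3 calls were in complex I and lower at 48H. NDUFB10 was at -0.20 at 48H (adjusted p = 0.0323 with edgeR). NDUFA8 was at -0.19 and NDUFB2 at -0.27 from 24H to 48H (adjusted p = 0.0440 and 0.0219 with edgeR). With all libraries NDUFB10 was at -0.061 ± 0.066 at 48H, and NDUFA8 at -0.069 ± 0.082 from 24H to 48H. That fit keeps 2 CTRL and 2 TMAO 48H libraries, and since the libraries were chosen by the members' own levels, its calls are no support for a change. Leaving out any single library gave 0 members in each contrast.

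The other genes of the pathway were taken from lists chosen with earlier results of these data known. Of the nuclear subunit genes outside the symbol rule, COX4I1 had 5557, 5913 and 5999 normalised counts in CTRL, 5710.1, 5627 and 5286 at 24H and 6018, 5498 and 5728 at 48H, CYC1, which encodes cytochrome c1, had 2091, 2267 and 2394, 2041, 2128 and 2058 and 2252, 1965 and 2077, and COX4I2 was at 0 in all libraries. Their groups overlapped at 48H, and 0 of 4 tested genes passed in any contrast (edgeR), with 0 at an unadjusted p under 0.05. NDUFAB1, the acyl carrier protein of complex I, was not in that list of 4 and was at -0.015 at 24H and -0.011 at 48H (adjusted p = 0.9795 and 0.917 with edgeR). A list of 51 genes held mostly assembly factors, which build the complexes without being part of them, and also genes with other roles such as LRPPRC, TACO1 and ATPIF1. Of these 51, 0 passed at 24H, 1 was higher at 48H, and from 24H to 48H 1 was higher and 1 lower. Over all genes 0.095 percent passed at 24H, 10.4 percent at 48H and 7.52 percent between the time-points. NDUFAF3, an assembly factor of complex I, had 1048, 1101 and 1047 in CTRL, 1083, 1090.3 and 1012 at 24H and 1273, 1171 and 1183 at 48H, with all 48H libraries above the others. Its log2 fold change at 48H was 0.18 ± 0.053 (adjusted p = 0.0459 with edgeR), and the call was lost in 13 of 16 alternatives, with adjusted p-values from 0.0142 to 0.221. BCS1L, which inserts the Rieske protein into complex III, had 848, 967 and 957, 935, 979 and 918 and 789, 764 and 857, and fell from 24H to 48H by a log2 fold change of -0.23 ± 0.065 (adjusted p = 0.0470 with edgeR), a call lost in 9 of 16 alternatives, with adjusted p-values from 0.0274 to 0.182.

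Of 7 electron carriers and enzymes that feed the ubiquinone pool, 1 was higher at 48H. Over all genes 10.4 percent passed at 48H (5.13 percent higher and 5.29 percent lower). GPD2, the mitochondrial glycerol-3-phosphate dehydrogenase, had 1706, 1672 and 1718 normalised counts in CTRL, 1851, 1840.5 and 1721 at 24H and 1924, 2031 and 1984 at 48H. All treated libraries exceeded all CTRL libraries, and the log2 fold change at 48H was 0.22 ± 0.044 (adjusted p = 0.0073 with edgeR), a call kept in 16 of 16 alternatives. CYCS, which encodes cytochrome c, was at 0.17 ± 0.060 at 48H (adjusted p = 0.0912 with edgeR). Among 7 carriers of ATP and phosphate, VDAC1, a channel of the outer membrane, fell at 48H by a log2 fold change of -0.15 ± 0.043 (adjusted p = 0.0401 with edgeR), from 4906, 4926 and 4509 to 4180.0, 4422 and 4309 normalised counts. That call was lost in 8 of 16 alternatives, with adjusted p-values from 0.0079 to 0.144. Of 13 citric acid cycle genes 0 passed in any contrast with edgeR, with 0 at an unadjusted p under 0.05 at 24H, 1 at 48H and 2 between the time-points. Over all genes 7.24, 25.8 and 22.1 percent were under that unadjusted p in these contrasts.

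Of 15 tested regulators of mitochondrial gene expression, 1 was higher and 1 lower at 48H, against 5.13 and 5.29 percent of all genes. TFAM, which packages and transcribes mitochondrial DNA, had 2554, 2464 and 2571 normalised counts in CTRL and 2986, 2870.1 and 2632 at 48H, a log2 fold change of 0.16 ± 0.048 (adjusted p = 0.0472 with edgeR), with all 48H libraries above CTRL. That call was lost in 13 of 16 alternatives, with adjusted p-values from 0.0104 to 0.155. POLRMT, the mitochondrial RNA polymerase, fell from 1788, 1874 and 1842 to 1616, 1597 and 1576, a log2 fold change of -0.20 ± 0.044 (adjusted p = 0.0115 with edgeR), which was -0.082 with a correction for GC content and length (adjusted p = 0.308, the highest over 16 alternatives, of which 2 lost the call, the lowest being 0.0044). NRF1 was at -0.055 ± 0.055 at 48H, GABPA at 0.13 ± 0.047 and ESRRA at -0.082 ± 0.078, none of which passed (adjusted p = 0.573, 0.0973 and 0.557 with edgeR). PPARGC1A, a coactivator of mitochondrial biogenesis, had no more than 4.03 normalised counts in any library and was not tested. Among the ribosomal proteins, 0 of 76 mitochondrial genes passed in any contrast with edgeR (4 at an unadjusted p under 0.05 at 24H, 5 at 48H and 7 between the time-points), and of 84 cytosolic genes 1, RPS2, was lower at 48H, at -0.19 on the log2 scale with an adjusted p of 0.0405 (edgeR), a call lost in 8 of 16 alternatives, with adjusted p-values from 0.00062 to 0.179. The shares of all genes at an unadjusted p under 0.05 were 7.24, 25.8 and 22.1 percent.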

How the data were processed

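RNA from HMEC-1 in 3 groups of 3 libraries was sequenced as paired ends on an Illumina NovaSeq. The authors processed the reads with the nf-core RNAseq pipeline (Trim Galore is named in the submitters' processing notes) and deposited estimated counts per gene symbol without normalisation. The aligner, genome build and annotation are not given in the sources used here, so no positions are given for counted genes. Groups and replicate numbers came from the labels. The members and lists were chosen with earlier results of these data known.

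Counts were rounded to whole numbers and fitted over all 9 libraries with edgeR 4.0.16 in R 4.3.3 (filterByExpr, 14740 genes, TMM, quasi-likelihood test with legacy = FALSE, Benjamini-Hochberg adjustment, thresholds of 0.05 and 1.4-fold), and the fit was tested on simulated data. A standard error is the log2 fold change divided by the square root of F. The smallest p an exact permutation test of 3 against 3 allows is 0.1. Named with values were, in each contrast, the 6 members with the largest rise and the 6 with the largest fall and the extremes of each complex at a mean normalised count of at least 50, the SDH genes and tissue isoforms. NDUFA8 and NDUFB10 and non-overlapping members were named after their values were seen. The values of 1 tested member are not reported here, though it is kept in all fits, counts and sums. Lengths and GC content came from GENCODE release 29 for 13829 of the genes tested (93.8%) and for all 86 members. Alternatives were DESeq2 1.42.0, RLE factors, other filters, the older quasi-likelihood fit, only the groups compared, a replicate block, removal of ribosomal RNA genes, a correction for GC content and length, other member lists and leaving out each library. No libraries were identical within counting noise.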

Additional observations from a re-analysis of the deposited data

Results flagged for a closer look

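No member differed between the effects at 24H and 48H by the direct test. Of the other genes of the lists, 3 did so with edgeR: NDUFAF3 was 0.188 higher at 48H than at 24H on the log2 scale, BCS1L was at -0.232 and RPS2 at -0.223. These calls were lost in 13, 9 and 5 of 16 alternatives. Over all genes 7.52 percent passed this comparison.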

How the results depend on the processing

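The count of 0 members at an adjusted p under 0.05 held in 17 of 17 alternatives for each contrast, with smallest adjusted p-values no lower than 0.0617 when single libraries were left out. The alternatives with other member lists reused the fit over all libraries, so their count of 0 is no check of the processing. The number at an unadjusted p under 0.05 ranged from 1 to 9 at 24H, 1 to 9 at 48H and 0 to 16 between the time-points, with the alternative of 2 libraries left out counted in. The highest of these counts were reached in that alternative. Over all genes the shares were 7.24, 25.8 and 22.1 percent with all libraries, and they were not obtained for the alternatives. The members' median log2 fold change stayed within the spread between libraries in these alternatives, from -0.045 to 0.044 at 24H, -0.051 to 0.045 at 48H and -0.047 to 0.039 between the time-points when single libraries were left out. Leaving out both CTRL replicate 3 and TMAO 48H replicate 1, an alternative chosen after the data were seen, gave 1 member at 48H (10.3 percent of all genes) and 2 between the time-points (10.4 percent). Deviations of same-numbered libraries correlated by -0.21 to 0.087 (9 pairs across genes) and those of others by -0.12 to 0.28 (18 pairs). The deviations were taken from group means of 3 libraries, which ties these correlations to each other. They therefore cannot decide whether the replicate numbers pair the libraries. With the replicate block 0 members passed in each contrast, with smallest adjusted p-values of 0.855, 0.191 and 0.166, so the block changed no call of a member. Of the other genes named, NDUFAF3, TFAM, VDAC1 and RPS2 at 48H and NDUFAF3, BCS1L and RPS2 between the time-points lost their call under the block (adjusted p = 0.0798, 0.0843, 0.0850, 0.0974, 0.0889, 0.0823 and 0.0720 with edgeR).

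Single members changed sign, among them ATP5H, the largest rise at 48H, and UQCRQ, NDUFS7, NDUFB1 and COX7A2. With all libraries ATP5H was at 0.17 ± 0.12 (SE), NDUFS7 at -0.10 ± 0.062 and NDUFB1 at -0.10 ± 0.13 at 48H. UQCRQ was at -0.11 ± 0.092 at 24H, and COX7A2 at 0.10 ± 0.12 between the time-points. The cause of the changes of sign was not tested. With the correction for GC content and length COX7C was at -0.0024 and SDHC at -0.14 at 24H, NDUFS7 at 0.047, SDHA at 0.0017 and UQCRB at -0.023 at 48H, and NDUFS3 at 0.011 and SDHA at 0.039 between the time-points. Without both CTRL replicate 3 and TMAO 48H replicate 1 COX8A was at 0.0094 and UQCRQ at 0.0067 at 24H, UQCRB at -0.0041 at 48H and COX7A2 at -0.019 between the time-points. SDHB between the time-points, at 0.00085 with all libraries, was at -0.0063 with DESeq2, -0.0049 with RLE factors, -0.00095 without a filter, -0.0012 with at least 10 counts in every library, -0.00016 with the older fit, -0.0075 with only the groups compared, -0.0089 without ribosomal RNA genes, -0.018 with the correction for GC content and length and -0.013 without both libraries. Leaving out single libraries gave -0.092 to 0.0094 for COX8A, -0.024 to 0.057 for SDHC, -0.050 to 0.027 for SDHD and -0.18 to 0.0067 for UQCRQ at 24H. It gave -0.0097 to 0.30 for ATP5H, -0.13 to 0.047 for COX5B, -0.22 to 0.056 for NDUFB1 and -0.067 to 0.12 for UQCRB at 48H, and -0.0067 to 0.17 for COX7A2, -0.029 to 0.010 for SDHA and -0.023 to 0.037 for SDHB between the time-points. NDUFA4L2, COX6B2 and COX7A1 had low counts, and their intervals reached beyond 1.4-fold in every contrast, for COX7A1 in only 1 direction each time.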
